A study of Homo sapiens with 4 samples.

Results

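The genes that license replication origins, unwind DNA and copy it at the fork were followed in 22Rv1, a human prostate cancer cell line that grows without androgen. The members are 53 genes named by symbol for these roles, each read by 1 probe set, out of 17687 genes with a symbol on the array. They were proposed as genes whose androgen response differs between the siRNAs, so that difference is given here as a description. The cells were kept in hormone-depleted medium, transfected with control siRNA (siControl) or one directed at the octamer-binding factor OCT1 (siOCT1), and 48 h later given ethanol vehicle or 10 nM dihydrotestosterone (DHT), the potent androgen, for 24 h. The 4 groups were siControl vehicle, siControl DHT, siOCT1 vehicle and siOCT1 DHT, all from this line alone and with 1 array each. Differences between single arrays thus lack any replicate, and precision is limited by there being 4 arrays. The level of the siRNA's target was not analysed here, so siOCT1 names the transfection as labelled.

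Replication starts where the origin recognition complex (ORC) sits on DNA, and CDC6 and CDT1 load the ring of MCM2 to MCM7 there during G1 phase. The kinase CDC7 with DBF4 then lets CDC45 and the GINS proteins join the ring to form the moving helicase, after which polymerase alpha-primase, the sliding clamp PCNA with its loader RFC, and polymerases delta and epsilon copy the strands. Many of these genes are switched on at the G1/S boundary by E2F factors, and androgen is known for driving prostate cancer cells into S phase.

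Values are the deposited log2 signals, and differences are log2 differences on that scale. Background was taken from 612 negative control probe sets as their 95th percentile per array, at 6.62 for siControl vehicle, 6.99 for siControl DHT, 7.39 for siOCT1 vehicle and 6.91 for siOCT1 DHT. A gene counted as tested where its mean over the 4 arrays exceeded the mean background of 6.98, which held for 41 of the 53 members and 7467 genes in all. Of the members 23 lay above background on all 4 arrays, 26 on 1 to 3 arrays, and CDT1, MCM10, POLD1 and LIG1 on none. A difference was counted as higher or lower at 1.5-fold or more, and where the dimmer array lay at or below its background a lower bound on the fold is given, the brighter signal over that background, with the words "at least". Across probe sets the arrays correlated at Pearson r of 0.97 to 0.987, and 5 of 5 luminal epithelial markers lay above background on all arrays, while basal and immune markers (2 and 3 with a probe set) were above it on none. Stromal and endothelial markers were above background on at least 1 array for 2 of 7, with none above it on all 4, and their summed log2 signal was 8.08 and 8.32 with siControl and 8.76 and 8.86 with siOCT1 in vehicle and DHT; their part in the results was not tested. Of 8 androgen-induced genes with a probe set, 8 were higher with DHT in siControl and 6 in siOCT1, with median differences of 2.64 and 1.95. The 4 of them that counted as tested, some through their DHT arrays, had medians of 3.44 and 4.12. Of 22 negative controls that would have counted as tested, 18 and 21 passed the 1.5-fold rule for siOCT1 in vehicle and DHT, and 17 and 18 for DHT in siControl and siOCT1. Of all 612 it was 56.0% and 56.9%, and 48.5% and 56.2%, so single differences of this size occur in probe sets with no target.

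The promoters are shown first because E2F factors are known regulators of these genes and the siRNA targets a DNA-binding factor. RefSeq promoter windows on GRCh38.p14, 250 bases before to 50 after the start of the first listed transcript, were found for 46 of the 53 members. An E2F form (TTTGGCGC, TTTGCCGC, TTTCGCGC or TTTCCCGC, either strand, overlapping matches counted) was in 19 of 46 member promoters, 41.3%, against 6.09% of 6324 promoters of genes tested and 3.33% of all 27305. All 4 MCM2 to MCM7 promoters in the table held one (those of MCM2, MCM3, MCM6 and MCM7), as did 3 of 4 for CDC45 and GINS. None of the ORC promoters but that of ORC3 held one, and neither CDC7 nor DBF4 did. The octamer ATGCAAAT, the sequence OCT1 is known to bind, was in 0 of 46 member windows and in 1.31% of those of genes tested. At so low a share few or none of 46 windows would hold it, so this count does not set the members apart. A match is a string of letters and not a measured binding site.

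The promoters below show how the forms lie in members at 2 steps, licensing and helicase assembly, with the E2F forms in capitals, 5′ to 3′ on the gene's strand. CDC6 (chr17:40287629-40287928, plus strand) has 1 form just after the start. MCM2 (chr3:127598161-127598460, plus strand) has 2 overlapping forms on opposite strands at the start, and MCM6 (chr2:135876394-135876693, minus strand) has 2 such overlapping pairs upstream. MCM3 (chr6:52284693-52284992, minus strand) has 1 form across the start and 1 further upstream, and GINS2 (chr16:85688905-85689204, minus strand) has 1 form close upstream.
CDC6: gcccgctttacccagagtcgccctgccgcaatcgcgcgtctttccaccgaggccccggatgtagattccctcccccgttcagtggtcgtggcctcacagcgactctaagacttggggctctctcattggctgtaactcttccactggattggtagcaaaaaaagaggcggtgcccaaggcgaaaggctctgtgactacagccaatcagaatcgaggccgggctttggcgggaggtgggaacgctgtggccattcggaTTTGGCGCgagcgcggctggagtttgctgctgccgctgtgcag
MCM2: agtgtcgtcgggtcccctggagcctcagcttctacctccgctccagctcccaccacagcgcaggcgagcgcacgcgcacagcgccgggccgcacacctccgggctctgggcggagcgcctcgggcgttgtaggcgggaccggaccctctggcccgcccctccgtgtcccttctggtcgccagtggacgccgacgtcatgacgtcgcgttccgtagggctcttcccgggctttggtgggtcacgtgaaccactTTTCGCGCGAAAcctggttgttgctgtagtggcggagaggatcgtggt
MCM3: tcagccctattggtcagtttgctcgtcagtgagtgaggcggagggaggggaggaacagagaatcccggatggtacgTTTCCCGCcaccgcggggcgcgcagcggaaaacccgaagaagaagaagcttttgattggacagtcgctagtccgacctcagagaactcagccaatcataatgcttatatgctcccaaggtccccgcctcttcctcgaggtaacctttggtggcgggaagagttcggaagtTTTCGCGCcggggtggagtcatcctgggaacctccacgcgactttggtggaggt
MCM6: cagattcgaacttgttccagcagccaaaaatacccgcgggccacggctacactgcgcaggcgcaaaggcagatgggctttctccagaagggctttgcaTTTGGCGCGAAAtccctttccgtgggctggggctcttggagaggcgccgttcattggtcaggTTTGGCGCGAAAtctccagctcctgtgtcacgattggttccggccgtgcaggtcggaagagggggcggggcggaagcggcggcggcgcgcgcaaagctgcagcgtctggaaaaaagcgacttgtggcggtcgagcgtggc
GINS2: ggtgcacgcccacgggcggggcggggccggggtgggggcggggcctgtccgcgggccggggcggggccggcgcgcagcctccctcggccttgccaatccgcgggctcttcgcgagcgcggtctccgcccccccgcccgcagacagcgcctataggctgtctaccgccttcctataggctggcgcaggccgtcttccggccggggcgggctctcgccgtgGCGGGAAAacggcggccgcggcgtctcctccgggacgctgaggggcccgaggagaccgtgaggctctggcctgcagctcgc

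With OCT1 targeted, nearly all of the replication genes had lower signal, in vehicle and in DHT alike. In vehicle 39 of 41 tested members were lower and 0 higher (28.1% of all genes tested were lower and 22.1% higher), with a median of -2.33 against -0.06 over all genes tested. In DHT it was again 39 lower and 0 higher (25.2% and 18.2% over all genes tested), with medians of -1.86 and -0.07. In bulk RNA such as this, fewer cells in S phase and less RNA of a gene per cell cannot be told apart. Counted over all 53, 49 were lower in vehicle, 50 in DHT and 48 in both, and no member was higher. Of all 17687 genes 18.8% were lower and 18.95% higher in vehicle, and 17.6% and 16.3% in DHT. Both values of the pair lay above background for 21 of the 39 in vehicle and 34 of the 39 in DHT, and the remaining differences rest on a siOCT1 value below background. Only 23 members were above background on the siOCT1 vehicle array and 36 on the siOCT1 DHT array, against 48 and 47 with siControl. These arrays have unequal backgrounds, and of all genes 38.5% and 42.2% were above it with siOCT1 and 45.2% and 42.5% with siControl.

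**Figure D1:**
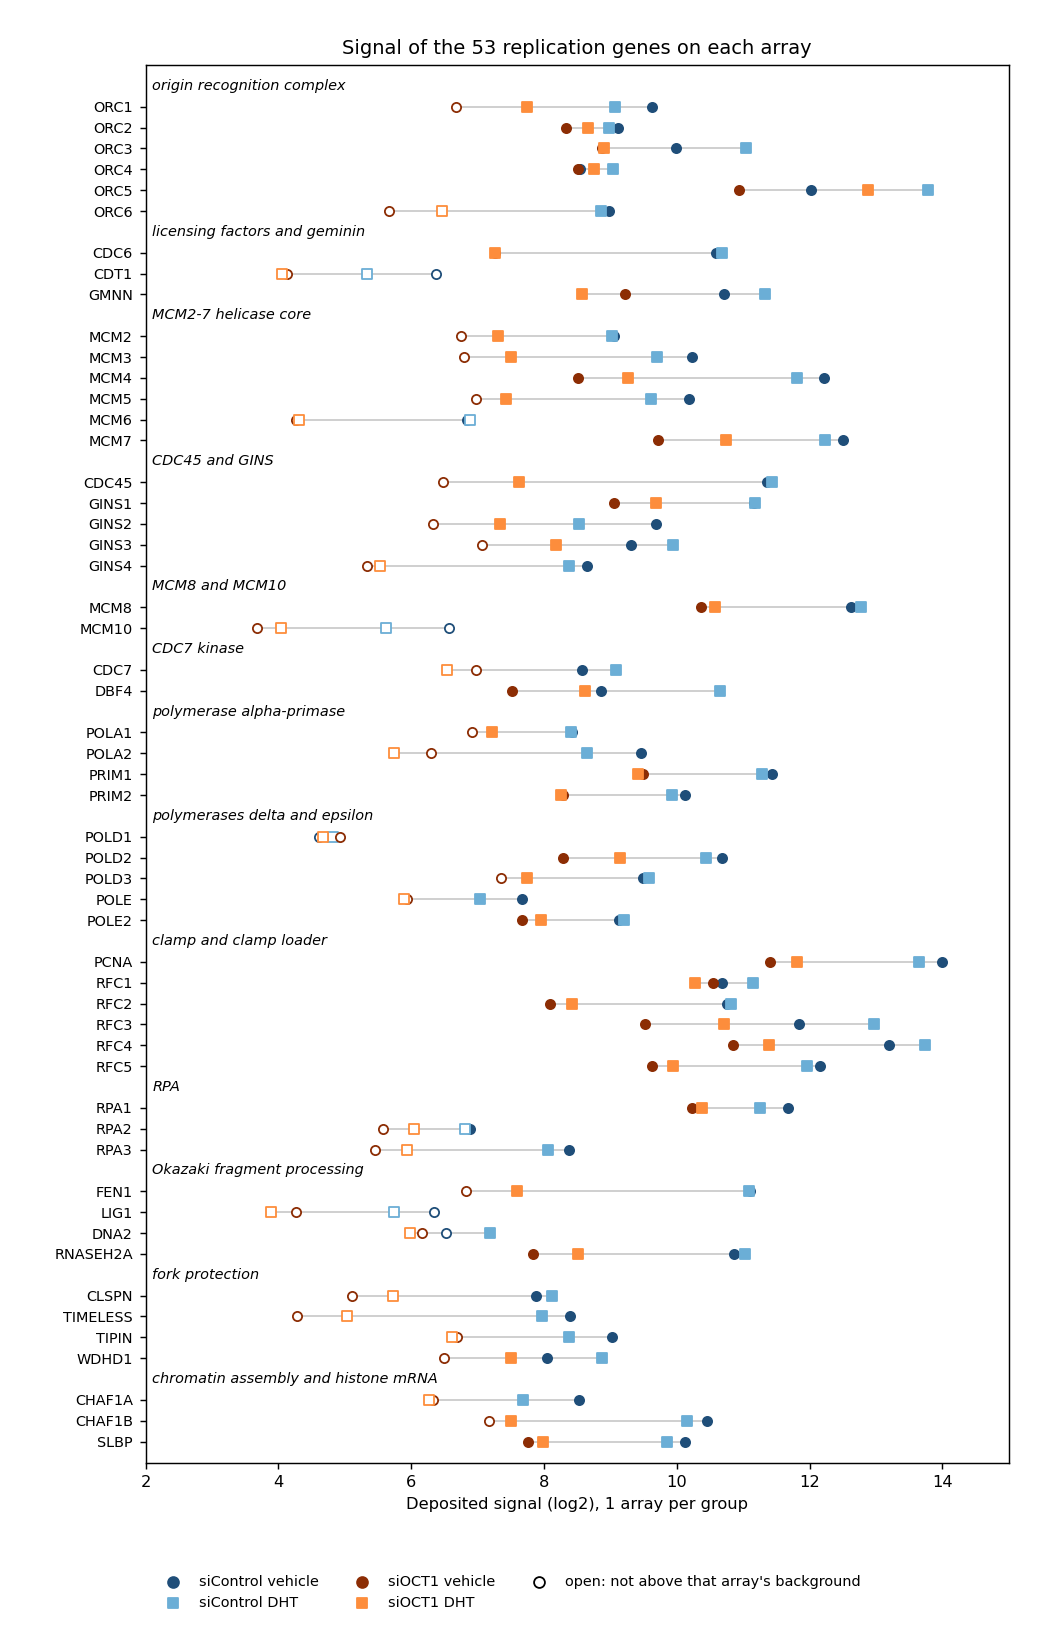
Deposited log2 signal of the 53 replication genes, grouped by role, with 1 symbol for each of the 4 arrays (circles vehicle, squares DHT; blue siControl, brown and orange siOCT1), open where the value is not above that array's background. The siOCT1 symbols lie left of both siControl symbols for most genes, while POLD1 lies between 4.61 and 4.93 on all arrays and ORC4 between 8.51 and 9.05.

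An additive limma fit of siRNA and ligand, which uses the ligand states as the repeat of the siRNA comparison, called 38 of the 41 tested members lower and 0 higher after Benjamini-Hochberg adjustment, against 16.3% of all genes tested called lower and 9.88% higher. Its residual has 1 degree of freedom and is the siRNA-by-ligand difference, not the spread between cultures. With dim values raised to the highest of the backgrounds it called 0 members and 0 genes (37 members had an unadjusted p under 0.05), and 37 members once the 72 genes left with no residual were taken out. "Fell" is used below of members it called. Among these, ORC6, CDC7, POLA2, TIPIN and CHAF1A counted as tested through their siControl arrays. Both their siOCT1 values lay below background, so the size of their fall is not measured. GINS2 also counted as tested through its siControl arrays. Its siOCT1 values of 6.33 in vehicle and 7.33 in DHT averaged below the mean background. All of these stand among the members counted as lower in vehicle and in DHT. Of the 23 members above background on all arrays, 21 were lower in each ligand state. ORC2, ORC4 and RFC1 were tested and not called, with adjusted p of 0.192, 0.703 and 0.228.

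The 5 tested genes of the MCM ring fell. MCM4 stood at 12.22 in siControl vehicle and 11.81 in siControl DHT, and at 8.51 and 9.26 in siOCT1 vehicle and DHT, all above background. It fell, with differences of -3.70 in vehicle and -2.55 in DHT (limma over both ligand states -3.13, SE 0.33, adjusted p of 0.0022), with both siOCT1 arrays below both siControl arrays. MCM7 was at 12.50 and 12.23 with siControl and at 9.71 and 10.74 with siOCT1, with differences of -2.79 and -1.49.

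MCM3 was at 10.23 and 9.71 with siControl and at 6.80 and 7.51 with siOCT1, the first of these below background, and was lower by at least 7.15-fold in vehicle with a log2 difference of -2.20 in DHT. MCM5 was at 10.18, 9.61, 6.97 and 7.42 in the same order, lower by at least 6.91-fold in vehicle with a log2 difference of -2.19 in DHT. MCM2 was at 9.05, 9.02, 6.75 and 7.31, lower by at least 3.15-fold in vehicle with a log2 difference of -1.71 in DHT. These 3 share one layout, with siOCT1 vehicle below background and siOCT1 DHT just above it. MCM6, at 6.84, 6.89, 4.27 and 4.30, was above background in siControl vehicle alone and has no fold.

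CDC45, which joins the ring to make the active helicase, fell. It stood at 11.36 and 11.43 with siControl and at 6.48 and 7.62 with siOCT1 in vehicle and DHT, lower by at least 15.6-fold in vehicle with a log2 difference of -3.81 in DHT (limma over both ligand states -4.34, SE 0.33, adjusted p of 0.001155). Of its GINS partners, GINS1 was at 11.17 and 11.18 with siControl and at 9.06 and 9.69 with siOCT1, with differences of -2.11 and -1.49 with all values above background.

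GINS2 was at 9.69 and 8.53 with siControl and at 6.33 and 7.33 with siOCT1, lower by at least 4.92-fold in vehicle with a log2 difference of -1.19 in DHT. GINS3 was at 9.31, 9.94, 7.07 and 8.19 in that order, lower by at least 3.76-fold in vehicle with a log2 difference of -1.76 in DHT. GINS4, at 8.65, 8.37, 5.33 and 5.53, was lower by at least 2.40-fold in vehicle and at least 2.76-fold in DHT. Within the GINS complex the siOCT1 arrays were thus below both siControl arrays for each of the 4 subunits. MCM8, a related helicase of recombination, fell (-2.26 and -2.21), while MCM10, an initiation factor that binds the helicase, was below background throughout.

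The origin recognition complex did not move as a unit. ORC1, the subunit whose level is known to vary over the cell cycle, was at 9.63 and 9.07 with siControl and at 6.67 and 7.74 with siOCT1, lower by at least 4.72-fold in vehicle with a log2 difference of -1.33 in DHT. ORC6 was at 8.98, 8.86, 5.66 and 6.47 in that order, at least 3.0-fold and 3.86-fold lower. ORC4 was at 8.54, 9.05, 8.51 and 8.76, a difference of -0.03 in vehicle and -0.29 in DHT, and the vehicle value turns to 0.19 with arrays centred on positive controls and 0.04 with loess centring. ORC2 was at 9.12, 8.98, 8.33 and 8.67, with differences of -0.79 and -0.32, and ORC3, at 9.99, 11.05, 8.88 and 8.91, fell (-1.11 and -2.14), as did ORC5 (-1.08 and -0.91). In these data the ORC subunits thus ran from differences near 0 to the size seen for the MCM genes.

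Of the licensing factors, CDC6 was at 10.59 and 10.67 with siControl and at 7.27 and 7.27 with siOCT1, lower by at least 9.15-fold in vehicle with a log2 difference of -3.41 in DHT (adjusted p of 0.001155 in limma). Geminin (GMNN), the inhibitor of CDT1 that blocks a further round of licensing, was at 10.71, 11.32, 9.22 and 8.58, with differences of -1.49 in vehicle and -2.74 in DHT. CDT1 itself was below background on all arrays. The kinase CDC7 was lower by at least 2.27-fold and 4.54-fold, and its activator DBF4, at 8.87, 10.64, 7.52 and 8.61, fell (-1.34 and -2.03).

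Among the synthesis genes, all 4 of polymerase alpha-primase fell. The primase subunits stood at -1.94 and -1.86 (PRIM1) and at -1.83 and -1.68 (PRIM2), and POLA2 was lower by at least 4.19-fold in vehicle and 3.33-fold in DHT. POLA1, the catalytic subunit, was lower by at least 2.03-fold in vehicle with a log2 difference of -1.19 in DHT. POLD2, an accessory subunit of polymerase delta, was at 10.68, 10.43, 8.29 and 9.14, with differences of -2.39 and -1.29, and POLD3 and POLE2 fell as well. POLE, the catalytic subunit of polymerase epsilon, was lower by at least 1.21-fold and 1.09-fold, and the delta catalytic subunit POLD1 was below background at 4.61, 4.82, 4.93 and 4.67.

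PCNA, the sliding clamp, was at 14 and 13.65 with siControl and at 11.41 and 11.80 with siOCT1, with differences of -2.59 and -1.85 (limma over both ligand states -2.22, SE 0.25, adjusted p of 0.00277). The loader subunits RFC2, RFC3, RFC4 and RFC5 fell, with differences of -2.66 to -2.33 in vehicle and -2.40 to -2.02 in DHT, with all values above background. RFC4, for one, was at 13.19 and 13.74 with siControl and at 10.85 and 11.39 with siOCT1. RFC1, the large loader subunit, stood apart from them at 10.67, 11.14, 10.55 and 10.27, a difference of -0.12 in vehicle (0.09 when centred on positive controls) and -0.87 with the ligand. The clamp and 4 of the 5 loader genes were thus lower with siOCT1 whatever the ligand. RPA1, the large subunit of the single-strand binding complex, at 11.68, 11.26, 10.23 and 10.38, fell (-1.45 and -0.88), RPA3 was lower by at least 1.98-fold and 2.23-fold, and RPA2 was above background in siControl vehicle alone.

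FEN1, the flap endonuclease that trims Okazaki fragments, was at 11.10 and 11.08 with siControl and 6.83 and 7.59 with siOCT1, lower by at least 13.0-fold in vehicle with a log2 difference of -3.49 in DHT. RNASEH2A, the catalytic subunit of the RNase that removes RNA primers, was at 10.86, 11.02, 7.84 and 8.51, with differences of -3.02 and -2.51. LIG1, the ligase of the same step, was below background. DNA2, a nuclease-helicase, was at 6.53, 7.19, 6.16 and 5.99, above background in siControl DHT alone and at least 1.22-fold lower with siOCT1 there.

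Of the fork protection genes, TIMELESS, which steadies the fork and was not among the tested members, was at 8.39, 7.97, 4.27 and 5.03, at least 2.0-fold and 2.08-fold lower, with differences of -4.12 and -2.94 whose size rests on siOCT1 values below background. Its partner TIPIN was lower by at least 3.08-fold and 2.77-fold. CLSPN (claspin), the checkpoint mediator, was lower by at least 1.40-fold and 2.33-fold, and WDHD1, which tethers polymerase alpha to the helicase, lower by at least 1.57-fold in vehicle with a log2 difference of -1.37 in DHT. Of the chromatin assembly genes, CHAF1B was lower by at least 8.35-fold in vehicle with a log2 difference of -2.66 in DHT, and CHAF1A at least 2.20-fold and 1.71-fold lower. SLBP, which binds the stem-loop of histone mRNAs, fell (-2.36 and -1.86).

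**Figure D2:**
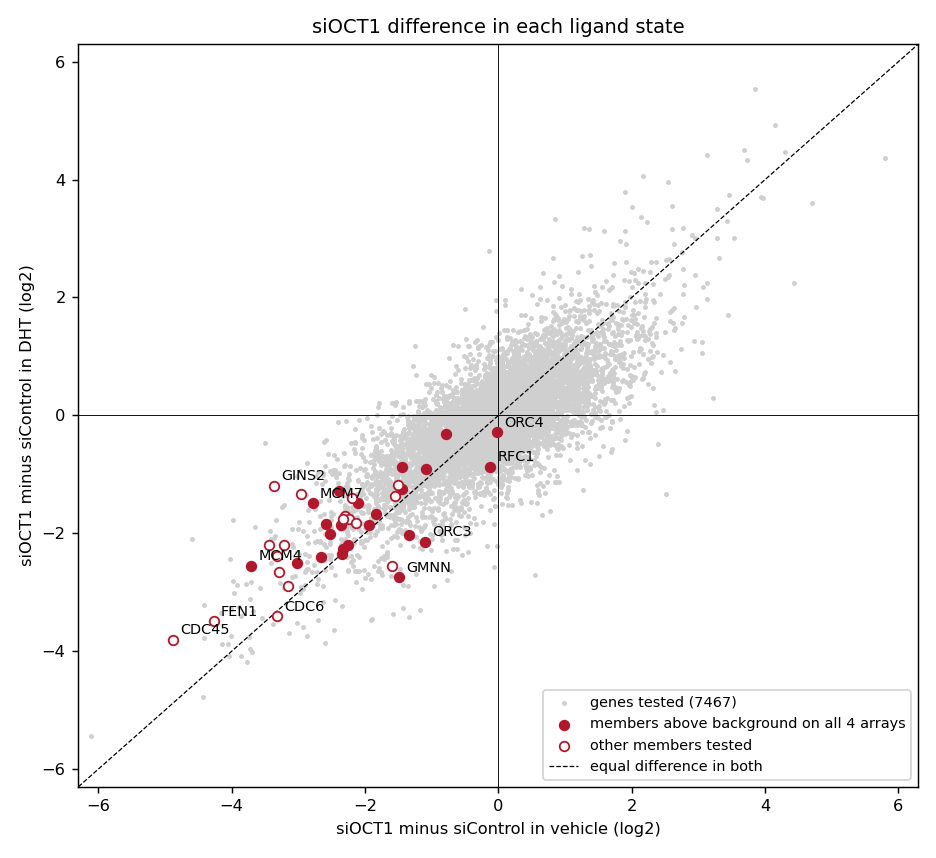
siOCT1 minus siControl (log2) in vehicle on the x axis and in DHT on the y axis, with the 7467 genes tested in grey and the 41 tested replication genes in red, open where 1 or more arrays were not above background. The members lie in the lower left, from ORC4 near 0 to CDC45 at -4.88 and -3.81. Above the dashed line of equal difference lie 33 of the 41, beside 3893 of the 7467 genes tested. Among those above background on all arrays it is 17 of 23 members and 3300 of 6458 genes.

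The siOCT1 differences in vehicle and in DHT, which share no array, correlated across the 41 members with Pearson r of 0.73 and Spearman rho of 0.61, beside r of 0.78 over all genes tested, as a description across genes that are not independent replicates.

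In siControl cells DHT left the median of the replication genes near 0. There 7 of 41 tested members were higher and 4 lower, against 15.7% and 11.3% of all genes tested, which puts both counts near the background. The median was -0.02, the same as over all genes tested, and with arrays centred on positive controls 11 were higher and 3 lower (21.7% and 7.23% of all genes tested). That centring moved the median of all genes tested from -0.02 to 0.13 in this comparison and from -0.06 to 0.16 for siOCT1 in vehicle.

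The 7 members higher with DHT in siControl belong to ORC, the CDC7 kinase, GINS, the clamp loader, geminin and WDHD1. With 15.7% of all genes tested higher and 11.3% lower, neither the higher nor the lower ones set the members apart. DBF4 went from 8.87 to 10.64, a difference of 1.78, and ORC5 from 12.02 to 13.79, a difference of 1.77. RFC3 stood at 1.13, ORC3 at 1.06, WDHD1 at 0.83, GINS3 at 0.64 and GMNN at 0.61. Those lower were GINS2 at -1.16, CHAF1A at -0.85, POLA2 at -0.82 and TIPIN at -0.64. The 5 tested MCM2 to MCM7 genes ran from -0.57 (MCM5) to -0.03 (MCM2), none past 1.5-fold, and MCM2 turned to 0.12 with arrays centred on positive controls.

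In siOCT1 cells 16 of 41 tested members were higher with DHT and 1 lower, against 13.1% and 9.83% of all genes tested, with a median of 0.40 beside 0.03. Both values lay above background for 8 of the 16, and raising dim values to the highest of the backgrounds left 9 that were higher and 1 lower (10.97% and 8.37% of all genes tested), with a median of 0.21. Among the 23 members above background on all arrays, 8 were higher and 1 lower, against 11.2% and 9% of the 6458 genes that passed the same filter.

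Under siOCT1, ORC5 went from 10.94 to 12.88, a difference of 1.94, RFC3 from 9.52 to 10.71 (1.19) and DBF4 from 7.52 to 8.61 (1.09). These 3 were higher with DHT under both siRNAs, as were GINS3, at 0.64 and 1.12, and WDHD1, at 0.83 and 1.01, both with a siOCT1 vehicle value below background. Raised to the highest of the backgrounds, WDHD1 stood at 0.11 in siOCT1 and its change of the response at -0.71. MCM7 at 1.03, POLD2 at 0.86, MCM4 at 0.75, RNASEH2A at 0.68 and GINS1 at 0.63 were higher in siOCT1 alone with all values above background. CDC45 at 1.14, ORC1 at 1.06, FEN1 at 0.76 and MCM3 at 0.71 were higher from a vehicle value below background, which bounds them at least 1.17-fold, 1.27-fold, 1.15-fold and 1.08-fold. ORC6 and GINS2 were counted as higher on deposited values that give no fold, and both counted as tested through their siControl arrays. GMNN was the 1 member lower, at -0.64.

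**Figure D3:**
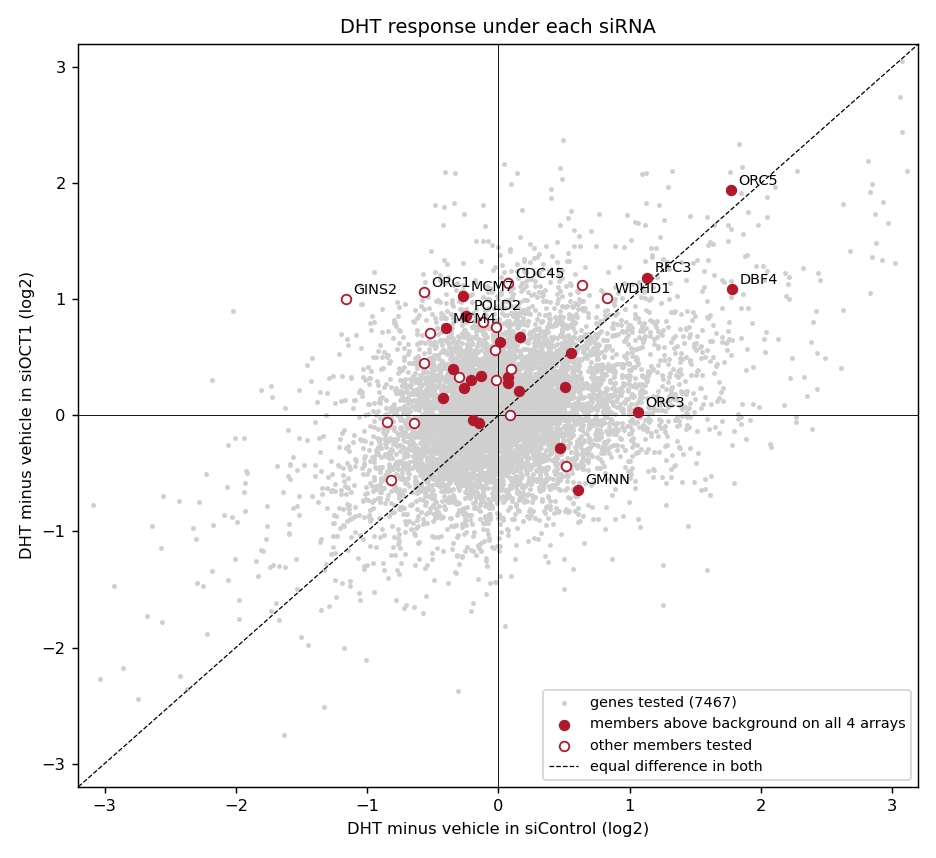
DHT minus vehicle (log2) in siControl on the x axis and in siOCT1 on the y axis, for the 7467 genes tested (grey; 31 lie outside the axes) and the 41 tested replication genes (red, open where 1 or more arrays were not above background). ORC5, DBF4 and RFC3 lie high on both axes, while MCM7, MCM4 and POLD2 lie left of 0 and above it, and GMNN lies on the opposite side.

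The change of the DHT response, siOCT1 minus siControl, had a median of 0.48 over the tested members beside 0.03 over all genes tested. It was at least 1.5-fold positive for 15 of 41 and negative for 5, against 16.4% and 16.9% of all genes tested, and 9 and 5 (9.31% and 25.1%) with arrays centred on positive controls, where the medians were 0.27 for members and -0.18 for all genes tested. With dim values raised to the highest of the backgrounds the median of members was 0.22, with 12 positive and 5 negative against 14.3% and 15.6%. Among the 23 members above background on all arrays the median was 0.20, with 5 positive and 4 negative, against 14.6% and 16.9% of genes that passed that filter. Of the 15 positive members, 5 had all 4 arrays above background. ORC6, GINS2 and CHAF1A, also among the 15, counted as tested through their siControl arrays. Of the 22 bright negative controls, 20 passed the same rule, and no test of this change is possible with 1 array per group.

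The positive changes of members above background on all arrays were led by MCM7 at 1.30, MCM4 at 1.15, POLD2 at 1.10, PCNA at 0.74, GINS1 at 0.62 and RPA1 at 0.57. RPA1 was under 1.5-fold, as were PCNA and GINS1 with arrays centred on positive controls. For MCM7, MCM4, POLD2, PCNA and RPA1 the DHT difference was below 0 in siControl (-0.42 to -0.24) and above 0 in siOCT1 (0.15 to 1.03), and GINS1 went from 0.01 to 0.63. The most negative were GMNN at -1.25, ORC3 at -1.03, RFC1 at -0.75, DBF4 at -0.69, ORC4 at -0.26 and RFC4 at -0.01. ORC3 went from 9.99 to 11.05 with DHT in siControl and from 8.88 to 8.91 in siOCT1.

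CDC7 stood at -0.95 from siOCT1 values below background on both arrays, and at -0.52 with dim values raised, under 1.5-fold. All 5 tested MCM2 to MCM7 genes were positive, from 0.59 (MCM2) to 1.30 (MCM7), also under each scaling tried, while MCM2 stood at 0.03 once dim values were raised to the highest of the backgrounds. The clamp loader split, with RFC5 at 0.52, RFC2 at 0.26, RFC3 at 0.05 and RFC4 and RFC1 below 0, and RFC3 turned to -0.16 with arrays centred on positive controls. GINS2 stood at 2.17 and ORC1 at 1.63 from siOCT1 vehicle values below background, and at 1.16 and 0.91 with dim values raised to the highest of the backgrounds. Opposite signs of the DHT response, below 0 in siControl and above 0 in siOCT1, were seen for 17 of 41 tested members (21.7% of all genes tested), the reverse for 4 (17.6%), both above 0 for 15 (30.9%) and both below 0 for 5 (29.7%), with values near 0 included. Across the 41 members the DHT responses, which share no array, correlated with r of 0.29 and rho of 0.16, beside r of 0.46 over all genes tested, as a description.

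**Figure D4:**
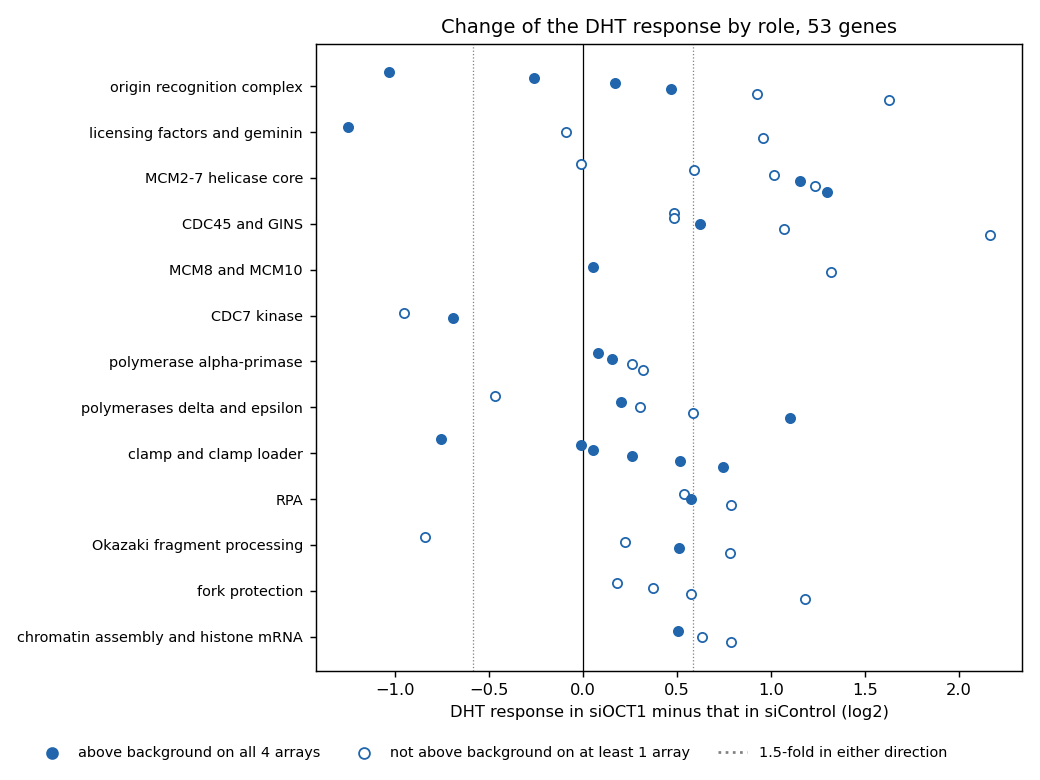
DHT response in siOCT1 minus that in siControl (log2) for the 53 replication genes by role, filled where all 4 arrays were above background, with dotted lines at 1.5-fold in either direction. MCM7, MCM4 and POLD2 are the filled points past 1 on the right, and GMNN and ORC3 those past -1 on the left.

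Genes of the pathway outside the members were lower with siOCT1 in part. Of 16 tested further replication genes 10 were lower in vehicle and 9 in DHT, with 0 higher and medians of -0.85 and -0.90. DTL, the substrate receptor that directs CDT1 destruction, stood at -4.41 and -3.22, the type II topoisomerase TOP2A at -1.76 and -2.43, and the histone chaperone ASF1B was at least 3.90-fold and 6.25-fold lower. Of 17 E2F, DREAM and G1/S kinase genes 11 were lower and 4 higher in vehicle, and 12 and 3 in DHT, with CCNA2 (cyclin A2) at -4.01 and -3.74, E2F8, a repressor E2F, at least 3.92-fold and 4.14-fold lower, and MYBL2 at least 2.19-fold and 3.28-fold lower.

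No difference between the lists was tested. Nucleotide supply genes had a median change of 0.64 with 5 of 10 positive and 0 negative, and RRM1 and RRM2, the ribonucleotide reductase subunits, stood at 0.27 and 0.81. Mitosis genes had a median change of -0.26 with 2 of 31 positive and 10 negative, and ran from -2.35 to 1.56. CDC20 at 0.36 and NDC80 at 0.45, the latter from a siOCT1 vehicle value below background, were named by their siOCT1 difference. Their change lay on the other side of 0 from the list median. In siControl, DHT left 13 of the 31 mitosis genes higher and 0 lower, with a median of 0.52, where the replication members had 7 and 4. Recombination and Fanconi genes had a median change of 0.40 over 7 tested, with XRCC2 at -0.03 and EXO1 at 1.59, the latter from a siOCT1 vehicle value below background. For the siOCT1 difference the median of mitosis genes was -1.82 in vehicle and -2.14 in DHT, and that of the replication members -2.33 and -1.86.

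**Figure D5:**
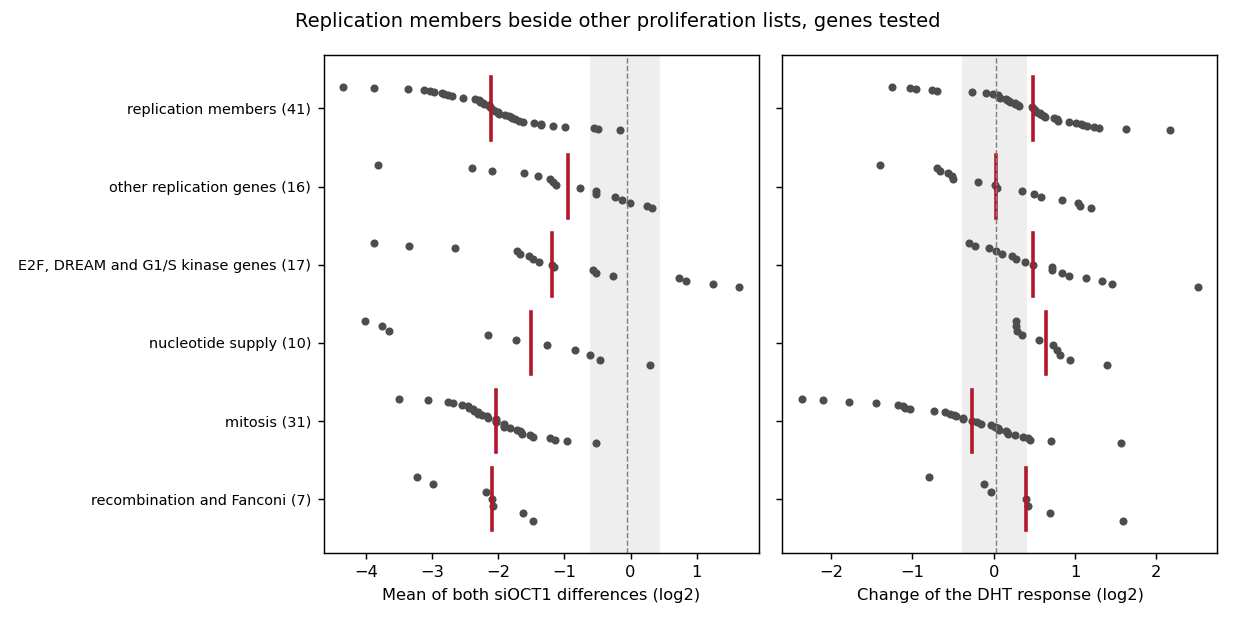
Mean of both siOCT1 differences (left) and change of the DHT response (right), in log2, for the tested genes of 6 lists, 1 point per gene, with red bars at list medians, the grey band at the middle quartiles of all genes tested (-0.60 to 0.43 on the left, -0.38 to 0.40 on the right) and a dashed line at their median. The replication members lie left of the band on the left panel but for ORC2, ORC4 and RFC1, and on the right their median of 0.48 lies above it (0.22 with dim values raised would lie inside it) while the mitosis median of -0.26 lies inside it.

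Members with and without an E2F form in the promoter window had siOCT1 differences of like size, a comparison that was not tested. Over tested members the median siOCT1 difference was -2.31 in vehicle and -1.80 in DHT for 14 with a form, and -2.26 and -1.86 for 24 without. Their median change of the DHT response was 0.40 and 0.49. CDC6, MCM2, MCM3 and GINS2, whose promoters are printed above, ran from -0.09 to 2.17 in that change. Each of these has a siOCT1 vehicle value below background, so the range rests on levels that were not measured. ORC3, the ORC gene with a form, had a DHT response that was smaller in siOCT1, and MCM7, with 2 forms, one that was larger.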

How the data were processed

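RNA of 22Rv1 cells was run on Affymetrix arrays, with 1 for each of the 4 groups. The authors deposited log2 signals. The submitters' processing notes name RMA and Expression Console, and their versions and the genome build are not given in the sources used here. The method gives the probe intensities of all arrays one distribution, which hides any change in total RNA. The deposited probe set values do not share one exactly, with medians of 5.99 to 6.03 per array. The base of the logarithm was inferred from the values, of which 327 to 379 per array exceed 16, so a fold applies to this scale alone.

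The platform table named the probe sets. A gene with several was read from its brightest on average (each member has 1). Counts used 1.5-fold. limma 3.58.1 in R 4.3.3 (additive siRNA and ligand, intensity trend, 1 residual and 5.81 prior degrees of freedom, Benjamini-Hochberg over 7467 genes, threshold 0.05) was tested on simulated data. The simulated noise was independent and the changes additive, without a siRNA-by-ligand difference, so the simulation checks the code and not the calls made here. Other steps used pandas 2.3.3 and statsmodels 0.14.6 in Python 3.11.15. Alternatives were a 2-fold rule, other filters on dim genes, values raised to the highest background, 32 added before the logarithm, centring on positive controls, loess, and limma without trend or with robust moderation.

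Members and lists were chosen with earlier results of these data known. Values were given per array for MCM2 to MCM7, CDC45, the GINS genes, PCNA, the 6 highest and 6 lowest changes of the DHT response among members above background on all arrays, and the 5 largest and 5 smallest mean siOCT1 differences. Other members were named for their role, and 2 or 3 genes per other list by largest mean siOCT1 difference. CCAAT and CHR promoter motifs were added after values were seen.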

Additional observations from a re-analysis of the deposited data

Results flagged for a closer look

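The deposited values of 2 of the 41 tested members passed 1.5-fold with DHT in opposite directions under the siRNAs, as did 1.03% of all genes tested. Each rests on single arrays, and neither difference was tested. For GINS2 the deposited values gave -1.16 with DHT in siControl and 1.0 in siOCT1, a change of 2.17. Its siOCT1 values of 6.33 and 7.33 both lay below the siOCT1 vehicle background of 7.39, so no higher level with DHT is shown there, and with values raised to that background the change was 1.16. GMNN was higher in siControl (0.61) and lower in siOCT1 (-0.64), a change of -1.25, with all 4 values above background.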

How the results depend on the processing

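Of 92 alternative counts of members, 75 were within 1.5 times the main count. Medians of members ran from -2.33 to -2.09 for siOCT1 in vehicle, -1.86 to -1.76 in DHT, -0.07 to 0.13 for DHT in siControl, 0.21 to 0.40 in siOCT1, and 0.20 to 0.48 for the changed response to DHT. No called value of a member changed sign under the scalings, the added constant or the raised background. At 2-fold, DHT in siControl had 4 members higher and 1 lower (7.39% and 3.32% of all genes tested), DHT in siOCT1 9 and 0 (4.02% and 2.57%), and the change of the DHT response 8 and 2 (5.18% and 6.50%). Without a filter on dim genes 8 members were lower with DHT in siControl (10.5% of all 17687 genes). Restricted to members above background on all arrays, which leaves 23 in place of 41, siOCT1 had 21 lower in vehicle and in DHT (25.3% and 22.9% of the 6458 genes so filtered). There DHT in siControl had 0 lower (10.1%), DHT in siOCT1 8 higher (11.2%), and the change 5 positive (14.6%). With values raised to the highest background, DHT in siOCT1 had 9 higher and limma called 0 members and 0 genes (37 members and 2562 genes at an unadjusted p under 0.05), as 72 genes then had no residual. Without those genes, an alternative chosen after seeing the data, it called 37 members lower and 0 higher, beside 1018 lower and 581 higher among 7395 genes. Centred on positive controls, DHT in siControl had 11 higher, DHT in siOCT1 2 lower and the change 9 positive. Of single member values 74 of 1060 moved by over 0.585, 59 of them with raised values and 15 with 32 added before the logarithm, among them the change of WDHD1, from 0.18 to -0.71 when raised. The level of siOCT1 vehicle, with the highest background of the arrays, limits what can be said of 30 members there.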

Other observations

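Outside the members, promoters with the octamer ATGCAAAT belonged to 83 genes tested, whose median siOCT1 difference was -0.27 in vehicle and -0.32 in DHT, beside -0.05 and -0.06 for 6203 genes without it. Of those with the octamer 32.5% were lower by at least 1.5-fold in vehicle and 38.6% in DHT, beside 27.7% and 24.8%. Genes other than members with an E2F form, 371 in all, stood at a median of -0.18 in each ligand state, beside -0.04 and -0.06 without one. Of those with a form 34.2% were lower in vehicle and 29.1% in DHT, beside 27.3% and 24.7%. These differences between promoter classes were not tested.

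Of other cell cycle promoter sequences, searched on both strands, CCAAT was in 56.5% of member windows and 38.9% of those of genes tested, and the CHR forms TTTGAA and TTCGAA, known from mitosis genes, in 4.35% and 11%. Members with CCAAT had a median DHT response in siControl of -0.15 (21 tested) and those without it of 0.51 (17 tested). In siOCT1 these medians were 0.34 and 0.33. Among genes tested other than members they ran the other way in siControl, at 0.02 with CCAAT (2437 genes) and -0.04 without (3849). Outside the members, 29.9% of genes with CCAAT and 33.7% with a CHR form were lower with siOCT1 in vehicle, beside 26.4% and 27.0% without. In DHT these shares were 28.4% and 31.8%, beside 22.8% and 24.1%. Both motifs were added after values were seen, and the members were proposed for their DHT response. These splits were not tested.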
